A study of Homo sapiens with 8 samples.

Results

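Pseudogenes are copies or remnants of genes that no longer encode the protein of their parent. A processed pseudogene arose when a spliced messenger RNA was copied back into the genome, an unprocessed pseudogene arose by duplication of a stretch of genome, and a unitary pseudogene is a gene that was lost in place without leaving an intact copy. Many pseudogenes are still transcribed, and small open reading frames (smORFs) in these RNAs can hold ribosomes. Described here are 771 of the 24199 smORFs of a Ribo-Seq series (3.19%), chosen because the gene types that the deposited annotation gives for them include a pseudogene type. Ribo-Seq sequences the fragments of RNA that a ribosome shields from nuclease.

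The cells were Caco-2, a line from a human colon carcinoma that comes to resemble the absorptive cells of the small intestine when it differentiates. The 8 libraries formed 4 groups of 2. One group was undifferentiated, and the other groups were differentiated and received either nothing more (control), micelles of the bile salt taurocholate without lipid, or lipid micelles with BSA, oleic acid and cholesterol. The design asks what differs on differentiation, and what micelles with and without lipid add to it. Nothing in the labels says that the 2 replicates of a group were separate cultures, so the p-values below measure the spread between these libraries, which may be technical.

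The libraries held 506382 to 884711 smORF counts each, and replicates of a group correlated at 0.877 to 0.915 across smORFs (Pearson, log2 scale, smORFs not being independent). Host genes chosen as markers of enterocytes and of dividing cells followed the labels. Tested smORFs came from 6 of the 16 enterocyte genes, where 19 of 21 were called higher in the differentiated control and 1 lower. They came from 7 of the 15 genes of dividing cells, where 24 of 24 were called lower. Of all smORFs tested, 17.7% were called higher and 15.6% lower, and smORFs of the same gene are not independent. The summed level over the enterocyte list was 1540 and 1970 counts per 1e6 smORF counts after TMM scaling (CPM) in the undifferentiated libraries and 4950 to 7140 in the 6 differentiated ones, and that over the list of dividing cells was 8080 and 8390 against 530 to 692. Among the immune markers with a smORF, PTPRC, MS4A1 and NKG7 were at 0 in all libraries and the list summed to at most 11.7 CPM, while the fibroblast list summed to at most 33. Fewer dividing cells and less of a given RNA per cell cannot be told apart in bulk libraries, and the part of cell division in the differences below was not tested.

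The 771 smORFs were put under 264 pseudogene names, here called hosts, of which 114 held a single smORF and 12 held 10 or more. A host is a name only, and the smORF need not share an exon with that pseudogene. Host tallies below include such names unless limited to pseudogene exons. The smORFs were not independent items, since 568 of them overlapped another smORF of the table and all of them fell into 383 overlap clusters. Set against GENCODE 44 on the same strand, 456 had at least 50% of their bases in pseudogene exons (164 hosts) and another 47 had fewer. A further 163 overlap a pseudogene in range, on either strand, but share no exon base with it. Of these, 152 are spliced and 11 have a single exon, and 75 lie on exons of protein-coding genes, 86 on exons of non-coding genes and 2 on neither. Only an exon of a pseudogene on the opposite strand was found for 7, and GENCODE 44 holds no pseudogene at the locus of the last 98, where 90 sit on exons of long non-coding RNAs. The name "pseudogene smORF" therefore holds in the strict sense for at most the 503 in pseudogene exons, and the others are kept apart where it matters. Among those in pseudogene exons, at least 46 also lie on exons of a protein-coding gene, whose transcript could hold the reads.

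In form they differed from the whole table. Their median length was 42 amino acids against 31 over all smORFs, 55.3% began with ATG against 43.4%, and 58.2% were spliced against 33.8%. A repeat element overlapped 60.3% of them against 39.7%. Coding conservation (PhyloCSF above 0) was rare in both, but was found for 5.19% of pseudogene smORFs, 8.33% of those mainly in pseudogene exons and 1.75% of all smORFs. The RibORF score, which rates how well the footprints follow a reading frame, had a median of 0.89 against 0.876.

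The sequences below are those of 5 pseudogene smORFs that were at or near 0 in undifferentiated cells, read from the deposited annotation (hg38, 5′ to 3′, exons joined, start codon in capitals). They are the smORFs of ABCA17P, a lost transporter of the ATP-binding cassette A family (chr16:2395913-2406639, plus strand, 3 exons), of CELP, a copy of the gene for carboxyl ester lipase (chr9:133082052-133082132, plus), of OR52K3P, from the olfactory receptors (chr11:4393793-4394053, plus), of RPLP0P2, from a protein of the ribosomal stalk (chr11:61628789-61628986, plus), and of BICDL3P, from the BICD-like adaptors (chr7:73735484-73735816, plus, 2 exons). All 5 begin with ATG.
ABCA17P: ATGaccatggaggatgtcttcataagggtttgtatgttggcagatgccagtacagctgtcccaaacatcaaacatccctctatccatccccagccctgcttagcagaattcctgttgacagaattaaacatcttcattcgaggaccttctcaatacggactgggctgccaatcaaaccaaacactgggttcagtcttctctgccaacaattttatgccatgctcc
CELP: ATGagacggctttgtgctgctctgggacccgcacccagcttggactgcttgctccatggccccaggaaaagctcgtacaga
OR52K3P: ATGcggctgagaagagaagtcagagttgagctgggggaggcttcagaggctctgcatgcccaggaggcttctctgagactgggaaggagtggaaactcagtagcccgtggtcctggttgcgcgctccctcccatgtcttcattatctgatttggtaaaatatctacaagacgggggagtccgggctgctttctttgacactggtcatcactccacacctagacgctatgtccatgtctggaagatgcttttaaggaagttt
RPLP0P2: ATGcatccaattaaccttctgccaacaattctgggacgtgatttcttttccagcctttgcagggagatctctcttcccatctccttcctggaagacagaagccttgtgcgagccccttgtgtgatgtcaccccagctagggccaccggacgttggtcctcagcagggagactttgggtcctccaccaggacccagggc
BICDL3P: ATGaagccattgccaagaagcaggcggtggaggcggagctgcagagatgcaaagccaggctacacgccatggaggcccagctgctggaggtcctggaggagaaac

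Next are smORFs with a close copy in a protein-coding gene, each above the stretch of the GENCODE 44 transcript that it matched, with the differing bases in capitals in both. AOC4P, a copy of amine oxidase AOC3, is at chr17:42868474-42868728 on the plus strand, and RABGEF1P3, a copy of the RAB5 exchange factor RABGEF1, at chr7:76108671-76108736 on the minus strand. GAPDHP74, a copy of the glycolytic enzyme GAPDH, is at chr1:119434600-119434629 on the minus strand, and LGALS17A, related to CLC (galectin-10), at chr19:39679420-39682126 on the plus strand. Over the aligned stretch they differed from the transcript at 16, 4, 1 and 19 bases in this order, without gaps. They are shown because the distance between 2 differences sets whether a footprint of about 29 bases can be placed on 1 of the copies.
AOC4P: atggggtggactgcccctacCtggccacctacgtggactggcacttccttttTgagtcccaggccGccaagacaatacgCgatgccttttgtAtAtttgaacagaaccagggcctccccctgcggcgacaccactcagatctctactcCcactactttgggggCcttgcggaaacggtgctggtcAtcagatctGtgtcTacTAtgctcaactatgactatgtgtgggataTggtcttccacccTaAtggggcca
AOC3: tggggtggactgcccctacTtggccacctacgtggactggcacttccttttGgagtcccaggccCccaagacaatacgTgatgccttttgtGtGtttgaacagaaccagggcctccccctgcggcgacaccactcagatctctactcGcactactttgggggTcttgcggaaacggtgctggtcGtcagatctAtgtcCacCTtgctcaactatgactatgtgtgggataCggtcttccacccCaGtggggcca
RABGEF1P3: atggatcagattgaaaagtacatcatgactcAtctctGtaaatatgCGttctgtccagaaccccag
RABGEF1: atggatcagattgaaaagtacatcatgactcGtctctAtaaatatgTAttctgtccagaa
GAPDHP74: atgacaaTtttggtatcgtggaaggactcg
GAPDH: atgacaaCtttggtatcgtggaaggactc
LGALS17A: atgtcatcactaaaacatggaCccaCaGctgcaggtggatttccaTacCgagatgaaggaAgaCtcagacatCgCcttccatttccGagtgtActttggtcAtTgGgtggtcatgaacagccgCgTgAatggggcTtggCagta
CLC: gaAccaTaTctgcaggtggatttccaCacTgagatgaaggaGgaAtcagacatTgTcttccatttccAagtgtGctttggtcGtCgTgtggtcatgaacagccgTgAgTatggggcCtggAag

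Pseudogene smORFs took a small part of the counts in every library. Their share was 1.75% and 1.77% in the undifferentiated libraries, 2.11% and 2.10% in the differentiated control, 1.95% and 1.97% with micelles without lipid, and 1.80% and 2.05% with lipid micelles. The control libraries were the highest and the undifferentiated libraries the lowest, and these 2 groups did not overlap. The group means were 1.76% ± 0.00991, 2.10% ± 0.0033, 1.96% ± 0.0105 and 1.93% ± 0.179 (SD, n = 2). The Wilson 95% interval of a library was at its widest 2.07% to 2.15%, and covers counting error alone, since reads without molecular identifiers are not independent molecules. No test was made of the shares, since an exact permutation test of 2 libraries against 2 cannot give a two-sided p below 0.333. The difference between control and undifferentiated libraries was 0.344 percentage points, and 0.136 for smORFs mainly in pseudogene exons alone.

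Between 259 and 282 pseudogene smORFs held 10 counts or more in an undifferentiated library, and 324 to 454 in a differentiated one. When every library was thinned to 506382 counts, these numbers became 232 and 236 against 289 to 329. In all, 524 reached 10 counts in some library and 162 in all 8, while 67 had no count in any library. The counts were concentrated in few hosts, with 12.6% in C19orf48P alone and 36.5% in the 10 leading hosts.

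Differentiation moved pseudogene smORFs more often up than down. Of the 771, 462 passed the filter on low counts (59.9%, against 62.7% of all smORFs), and 166 of these were called between differentiated control and undifferentiated cells (35.9%, at an adjusted p under 0.05 in edgeR's quasi-likelihood test and a change of at least 2-fold). Over all 15182 smORFs tested the called share was 33.3%, so the total was near the background. The directions were not split as in the background, with 122 higher (26.4%, against 17.7% of all tested) and 44 lower (9.52%, against 15.6%). The median log2 fold change was 0.52 over the tested pseudogene smORFs and 0.01 over all smORFs, and stayed at 0.52 with smORFs at 0 counts in both undifferentiated libraries set at their lower bound. There were 9 such smORFs in 6 hosts, which passed the filter through the differentiated libraries alone and had to come out higher. Those with a few undifferentiated counts could also pass in that way, and these were not counted.

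The CPM of the groups did not overlap, with the control higher, for 224 of the 462 and with the control lower for 103 (backgrounds 35.2% and 34.2%). Of 157 hosts with a tested smORF, 52 held rises and 13 held falls, and no host held both. For smORFs mainly in pseudogene exons these were 30 and 6 of 98 hosts. The matching shares over all genes of the series were not computed. When 1 smORF was kept per overlap cluster, 50 of 210 were higher and 8 lower (23.8% and 3.81%, against 19.0% and 15.7% of all smORFs under the same restriction). Without undifferentiated replicate 1, 80 of 505 were higher and 24 lower (15.8% and 4.75%, against 12.1% and 9.94% of all smORFs).

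**Figure D1:**
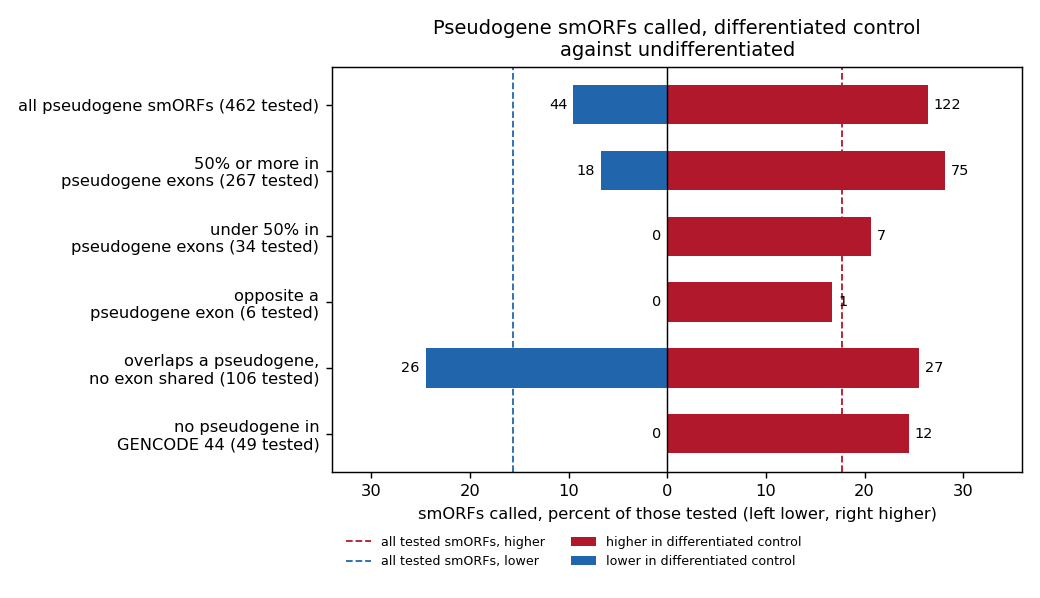
Pseudogene smORFs called between differentiated control and undifferentiated cells, as a percentage of those tested, by where they lie relative to pseudogene exons in GENCODE 44. Bars to the right are higher in the control and bars to the left lower, numbers give smORFs, and dashed lines give the 17.7% and 15.6% of all 15182 tested smORFs. The lower bars come from 18 smORFs in pseudogene exons and 26 that overlap a pseudogene without sharing an exon.

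The lower calls came mainly from smORFs that are not in pseudogene exons. Of the 267 tested with at least 50% of their bases in pseudogene exons, 75 were higher and 18 lower (28.1% and 6.74%), in 30 and 6 hosts. Of these called smORFs, 11 also overlap an exon of a protein-coding gene on the same strand. Of the 106 tested that share no exon base with the pseudogene they overlap, 27 were higher and 26 lower (25.5% and 24.5%). The classes with fewer bases in a pseudogene exon, opposite one, or with none in GENCODE 44 held 7 of 34, 1 of 6 and 12 of 49 tested smORFs higher, and 0 lower. By type, within pseudogene exons, transcribed unitary pseudogenes had 36 higher and 14 lower of 118 tested, transcribed unprocessed ones 20 and 0 of 78, transcribed processed ones 12 and 0 of 45, and processed ones 5 and 1 of 18. All 3 tested smORFs in 5S rRNA pseudogenes, which form 2 overlap clusters, were lower. The 7 smORFs in T cell receptor V pseudogenes and 2 in immunoglobulin V pseudogenes held too few counts to be tested.

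Rises from no count at all were found in 6 hosts. ABCA17P smORF IEC_07086 had no count in either undifferentiated library, which allows up to 4.71 and 5.33 CPM (3 counts), and stood at 80.2 and 54.6 CPM in the control, 59.8 and 52.5 with micelles without lipid and 53.5 and 61.7 with lipid micelles. All 6 differentiated libraries were above the undifferentiated ones, and the control was at least 13.4-fold higher (adjusted p = 2.2e-06). Where a group has no counts, as here, a fitted log2 fold change depends on the prior count of the fit and is given below only to order smORFs. Such smORFs passed the filter through the differentiated libraries alone and could only come out higher. Their adjusted p-values, here and in the next paragraph, are therefore no separate support for a rise.

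In OR52K3P the smORF IEC_11390 also had no count in undifferentiated cells and stood at 89.9 and 59.8 CPM in the control. The loci of OR52K3P and CELP hold no pseudogene in GENCODE 44, and their smORFs lie on exons of long non-coding RNAs. CELP IEC_11224 was at 27.4 and 19.5 CPM in the control (at least 4.67-fold higher, adjusted p = 0.00037), and its parent is the lipase that bile salts activate. RPLP0P2 IEC_07253 was at 19.5 CPM in both control libraries (at least 3.89-fold, adjusted p = 0.0005). BICDL3P IEC_05808, whose parent family links cargo to dynein, was at 13.7 and 15.6 (at least 2.92-fold, adjusted p = 0.0014) and AOC4P IEC_10056 at 11.7 in both (at least 2.33-fold, adjusted p = 0.0049). These 4 stayed above 0 in the micelle libraries, with RPLP0P2 lowest at 7.25 CPM.

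For 5 of the named smORFs the undifferentiated libraries held 1 to 4 counts in all, so the ratio is given with its counting interval (95%). These too passed the filter through the differentiated libraries alone. Their adjusted p-values, here and in the next paragraph, are likewise no separate support for a rise. OR52K3P IEC_11388 rose 93.6-fold (16.4 to 3740), from 0 and 1.78 CPM to 68.4 and 84.5, with an adjusted p of 1.8e-06. ENSG00000253897 IEC_20732, in a transcribed unprocessed pseudogene without a symbol on chromosome 5, rose 35.1-fold (13.4 to 131), from 4.71 and 1.78 CPM to 121 and 114 (adjusted p = 5.1e-07). RABGEF1P3 IEC_18976 rose 35.0-fold (11.7 to 172), from 3.14 and 1.78 to 66.5 and 101 CPM (adjusted p = 6e-06).

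The other rises named by the rule were smaller or less even. POLR1HASP IEC_18580, antisense to a subunit gene of RNA polymerase I, rose 20.6-fold (3.33 to 850), but its control libraries stood at 31.3 and 7.80 CPM, and without control replicate 1 the adjusted p was 0.12 and without undifferentiated replicate 2 it was 0.087. AADACP1 IEC_06870, from the esterase gene AADAC, rose 17.3-fold (4.47 to 148), from 1.57 and 1.78 to 21.5 and 33.8 CPM (adjusted p = 0.00043). In the plot of levels by library the 3 differentiated groups of each of these 10 smORFs lie together, to the right of the undifferentiated libraries.

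**Figure D2:**
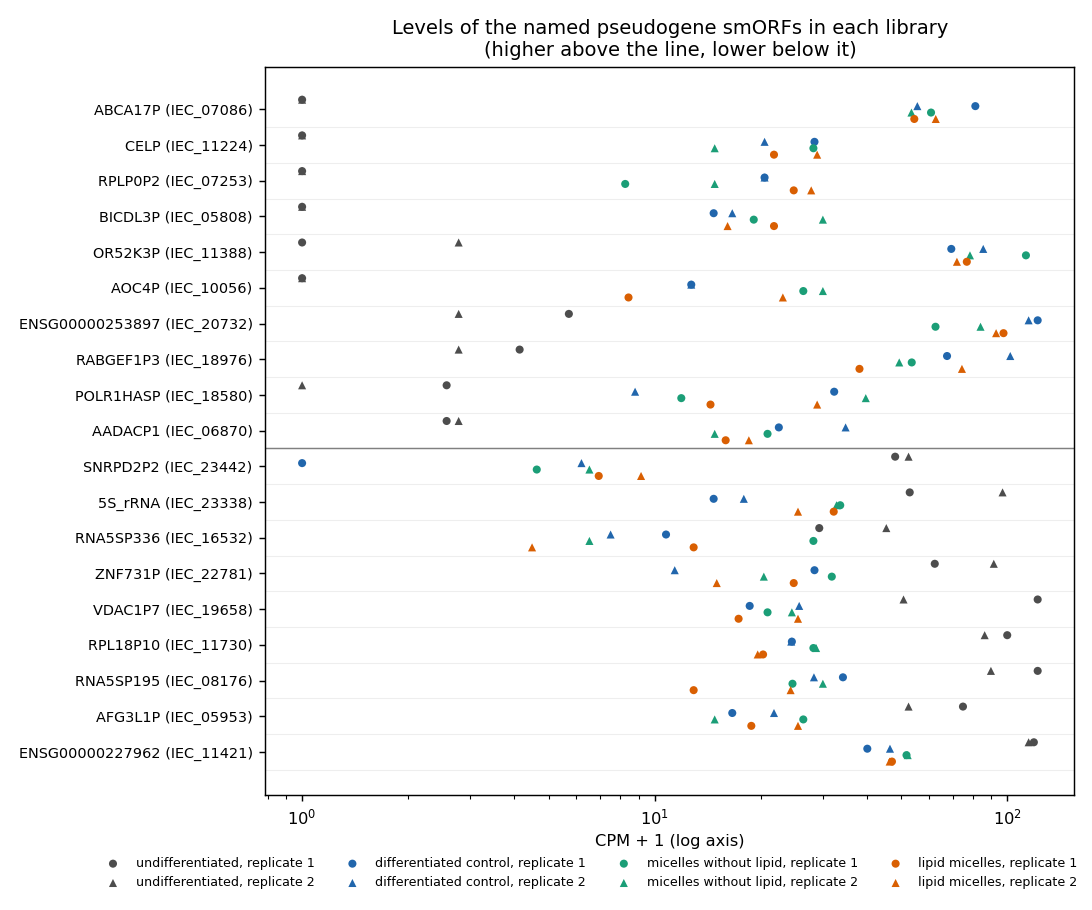
CPM plus 1 (log axis) of 10 pseudogene smORFs that rose and 9 that fell on differentiation, 1 per host, in each of the 8 libraries (circles replicate 1, triangles replicate 2, colours the 4 groups). Above the line the undifferentiated libraries sit at 0 to 4.71 CPM, and below it they sit at 28.3 to 121 CPM and lie right of both control libraries.

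Of 9 falls described here, 5 were in smORFs that share no exon base with a pseudogene. RNA5SP195 IEC_08176 joins exons of SNHG4, a host of small nucleolar RNAs, and MATR3, a protein of the nuclear matrix, and went from 121 and 88.9 CPM to 33.2 and 27.3 (log2 fold change -1.81 ± 0.35 SE, adjusted p = 0.00085). RPL18P10 IEC_11730 lies on exons of the long non-coding RNA DLEU1 and went from 99.0 and 85.3 CPM to 23.5 and 23.4 (-1.97 ± 0.34, adjusted p = 0.00025).

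The other falls outside pseudogene exons were SNRPD2P2 IEC_23442, from 47.1 and 51.5 CPM to 0 and 5.20 (-3.92 ± 0.64), ENSG00000227962 IEC_11421, from 118 and 114 to 39.1 and 45.5 (-1.44 ± 0.29), and ZNF731P IEC_22781, from 61.3 and 90.6 to 27.4 and 10.4 (-2.08 ± 0.45). For the last the adjusted p was 0.0018, and 0.052 without control replicate 2. These 5 smORFs lie on exons of other genes.

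Within pseudogene exons 4 falls were named. AFG3L1P IEC_05953, from a lost subunit gene of a mitochondrial protease, fell from 73.9 and 51.5 CPM to 15.6 and 20.8 (-1.75 ± 0.41, adjusted p = 0.0032). The 5S rRNA pseudogene smORFs were IEC_23338 on chromosome 19, at 51.9 and 96.0 CPM against 13.7 and 16.9 (-2.23 ± 0.41, adjusted p = 0.00052), and RNA5SP336 IEC_16532, at 28.3 and 44.4 against 9.77 and 6.50 (-2.17 ± 0.66, adjusted p = 0.016). The fall of RNA5SP336 was not past the threshold without undifferentiated replicate 2 (adjusted p = 0.13) or control replicate 2 (0.12). No 29-base window of these smORFs occurred elsewhere in hg38 or in other transcripts. Exact windows do not cover reads placed with mismatches, and whether reads came from other 5S rRNA copies was not tested. VDAC1P7 IEC_19658, from the outer mitochondrial membrane channel VDAC1, stood at 121 and 49.8 CPM in undifferentiated cells and 17.6 and 24.7 in the control (-1.98 ± 0.43, adjusted p = 0.0019), with an adjusted p of 0.081 without undifferentiated replicate 1.

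No host held calls in both directions. Of 57 hosts with at least 3 smORFs tested, 9 had all of them higher, 1 had all lower, 24 had none called, 17 had some higher and 6 some lower. The same tally was not made over other genes, so it cannot be read as a trait of pseudogenes. The host with all lower was RNA5SP195, and TAS2R63P and SNX25P1 were among those with all higher. The smORFs under these names share no exon base with the pseudogene. Since smORFs of a host overlap, they share reads and are no replicates. TMEM198B, a transcribed unitary pseudogene on chromosome 12, had 13 of 13 tested smORFs higher, all in 1 overlap cluster, with log2 fold changes of 2.16 to 4.29. Its smORF with the smallest p, IEC_07483, stood at 7.86 and 8.89 CPM in undifferentiated cells and 66.5 and 68.9 in the control (2.99 ± 0.41, adjusted p = 3.4e-05).

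KMT5AP3, a processed copy of the histone H4 methyltransferase gene KMT5A that lies within GPR160, had 7 of 7 higher, at 2.91 to 3.77. The smORFs under this name include some that share no exon base with the copy, so this is not a measure of the copy alone. URAHP, from the enzyme of urate breakdown that hominoids lost, had 8 of 13 higher and a range of 0.86 to 2.43. CYP2T1P, a cytochrome P450 pseudogene, had both tested smORFs higher, and its IEC_18940 went from 9.43 and 10.7 CPM to 88.0 and 107 (3.26 ± 0.38, adjusted p = 5.4e-06). WTAPP1, named for the RNA methylation subunit WTAP, had 2 higher, and its IEC_09320 went from 3.14 and 1.78 CPM to 29.3 and 37.7.

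C19orf48P, the host with the most counts, hardly moved. All 23 of its smORFs were tested, 2 were lower and 21 were not called, with log2 fold changes from -1.06 to 0.91. Its leading smORF IEC_23963 had 330 and 354 CPM in undifferentiated cells and 219 and 224 in the control (-0.63 ± 0.24, adjusted p = 0.047, short of the 2-fold threshold). The only one with a positive value was IEC_18129, which covers the small nucleolar RNA SNORD88A within the host and stood at 157 and 119 CPM against 334 and 191 (0.91 ± 0.33). Its reads can come from the small nucleolar RNA itself, and this was not tested.

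Neighbours on chromosome 16 are given side by side. AFG3L1P on the plus strand and CENPBD1P on the minus strand are divergent, with 97 bases between their nearest smORFs. AFG3L1P had 8 of 10 tested smORFs lower and CENPBD1P 1 of 11 higher and none lower, at -0.13 to 1.14, where IEC_21997 went from 28.3 and 16 CPM to 52.8 and 46.8 (1.14 ± 0.38, adjusted p = 0.026). The difference between these hosts was not tested.

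**Figure D3:**
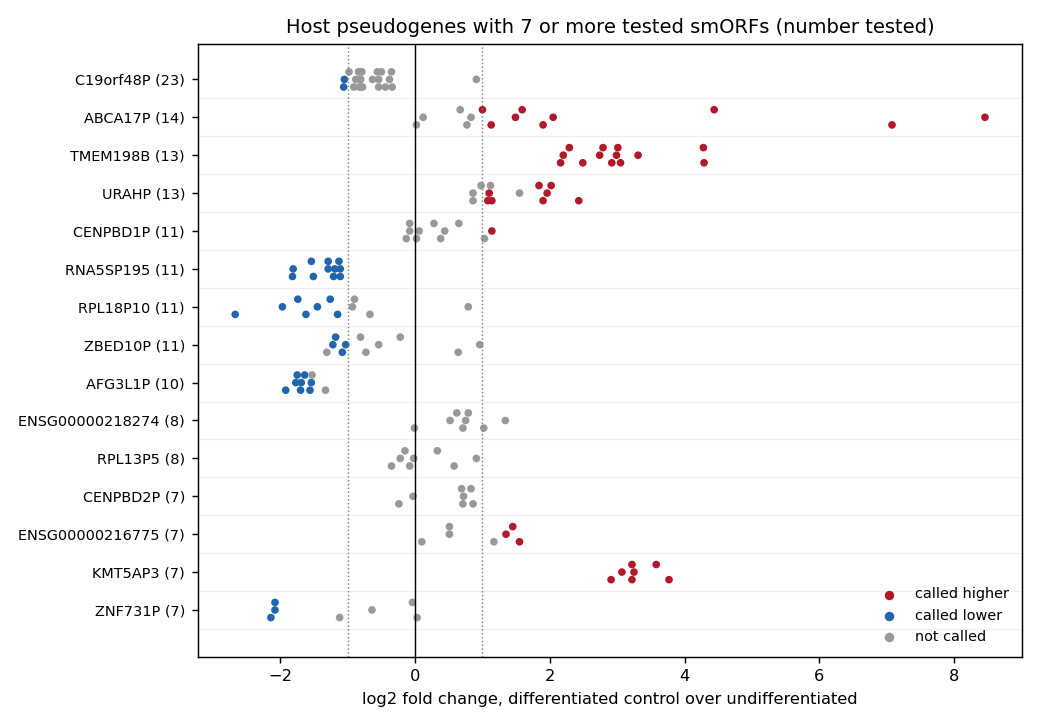
Log2 fold change of each tested smORF (differentiated control over undifferentiated) in the 15 hosts with 7 or more tested smORFs. The number tested is beside the name. Red points were called higher, blue points lower and grey points not called, and dotted lines mark 2-fold. TMEM198B, KMT5AP3 and RNA5SP195 lie wholly on 1 side, ABCA17P runs from 0.02 to 8.46, and smORFs of a host overlap and share reads.

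ABCA17P was the host with the widest range, and its values were ordered along the gene. It held 14 smORFs, of which 13 are in its exons and 1 is in exons of ABCA3, the neighbouring lipid transporter gene, on the other strand. The 3 smORFs of its first part, within 0.25 kb, had log2 fold changes of 0.02 to 0.67 and none was called. IEC_07083 there held 63 and 67 counts in undifferentiated cells and 59 and 81 in the control. Some 20.06 to 20.52 kb on, 6 of 7 smORFs were called higher at 1.00 to 2.05 and the other had 0.77. At 54.85 to 65.73 kb on, all 3 were called higher at 4.44 to 8.46 with at most 1 count in an undifferentiated library. These last 3 passed the filter through the differentiated libraries alone, so their calls are no separate support for a rise.

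So within this host the first part was read by ribosomes in both states, and the last part almost only in differentiated cells. The difference between these parts was not tested beyond each smORF's own comparison. The middle smORFs overlap one another in part, as do the first 3. In the last part IEC_07737 and IEC_07086 start at the same base and overlap. IEC_06958, the 9 amino acid smORF that opens the middle part, was at the threshold (1.00 ± 0.35, adjusted p = 0.032) and was not called without undifferentiated replicate 1 (0.081), undifferentiated replicate 2 (0.16) or control replicate 2 (0.29).

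**Figure D4:**
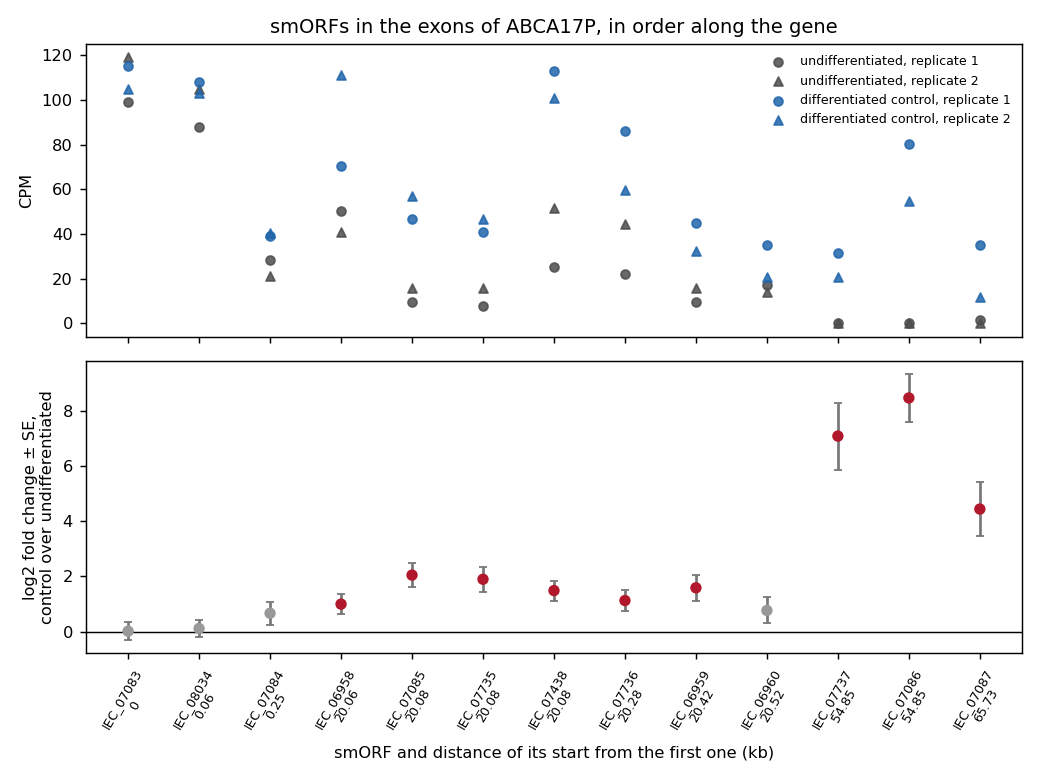
The 13 smORFs in exons of ABCA17P in order along the gene, with the distance of each start from the first one in kb. The upper panel gives CPM in the 2 undifferentiated and 2 control libraries, and the lower panel the log2 fold change with its standard error (red, called higher). Undifferentiated libraries hold reads over the first 3 smORFs and at most 1 count in each of the last 3, where fitted values depend on the prior count.

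Per kilobase, the highest levels belonged to very short smORFs, for which a footprint is longer than the frame and CPM per kb is inflated. The 8 leading hosts by this measure began with MICOS10P3 IEC_19573 (9 amino acids, 5990 CPM per kb as the mean of the 8 libraries), named for a protein of the mitochondrial inner membrane, GAPDHP74 IEC_19400 (10 amino acids, 4690) and TPMTP1 IEC_10631 (6 amino acids, 3550), from the thiopurine methyltransferase. None of these 3 was called on differentiation. MICOS10P3 had 211 and 194 CPM in undifferentiated cells and 143 and 166 in the control (-0.38 ± 0.25). GAPDHP74 ran from 53.4 to 210 CPM within the undifferentiated pair alone, and its fold change turned from -0.27 to 1.03 without undifferentiated replicate 2.

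The others in this list were ENSG00000218274 IEC_24023 at 3080 CPM per kb, ABCA17P IEC_06958 at 2820, RGS17P1 IEC_18084 at 2780, CYCSP6 IEC_23930 at 2320 and C19orf48P IEC_18129 at 2290. RGS17P1 IEC_18084 shares no exon base with its pseudogene and lies on exons of ELF1, an ETS transcription factor. It went from 190 and 133 CPM to 326 and 277 (0.89 ± 0.26, adjusted p = 0.012, under 2-fold).

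The parents came from many families, with ribosomal proteins the most frequent of the families listed. In pseudogene exons, 27 smORFs in 10 hosts were put with ribosomal protein genes, by the name of the host or by a match, of which 22 were tested. Of these 6 were higher and 0 lower (27.3% and 0%, against 17.7% and 15.6% of all smORFs tested). The risers were in RPL32P3, with 4 higher at 1.36 to 2.24, and in RPLP0P2, with 2 higher. The smORFs of each of these hosts formed 1 overlap cluster and share reads, so the risers are not independent. RPLP0P2 IEC_07253 is in the family by name, without a match. The median log2 fold change of the family was 0.08. The leading smORF by level, RPL13P5 IEC_12845, was at 105 and 142 CPM against 89.9 and 130 (-0.15 ± 0.28) and lies on exons of LRRC23, and its best match, over 41.7% of its length, was to FHDC1. The 8 hosts from immune receptor and HLA genes held 15 smORFs, and only HLA-H IEC_04476, at 4.71 and 3.55 CPM against 27.4 and 19.5, was tested and rose (5.43-fold, 2.08 to 18.0, adjusted p = 0.006). It passed the filter through the differentiated libraries alone, so this p-value is no separate support for the rise.

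Smaller families gave few testable smORFs, too few to set against the shares of all smORFs. Of 4 tested in histone pseudogenes none was called (median -0.62), of 4 in RNA binding and nucleolar ones 2 were higher, and of 2 in GAPDH and TPI1 copies 1 was higher. Of 2 in pseudogenes of actin, myosin and tubulin genes none was called, and ACTG1P25 IEC_06188, the leading one, stood at 6.29 and 5.33 CPM against 13.7 and 15.6 (1.31 ± 0.69, adjusted p = 0.15). Of 2 tested from mitochondrial genes 1 was lower, which is VDAC1P7, and the 1 tested from chaperone genes was not called. Copies of ferritin and translation factor genes were below the filter, and 532 smORFs in 166 hosts fell in no listed family, with 84 higher and 17 lower of 312 tested (26.9% and 5.45%).

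A direct match to a protein-coding transcript was found for 167 of the 503 smORFs in pseudogene exons (blastn, over at least 50% of the smORF, to 101 genes). Identity had a median of 90.7% and ran from 69.4% to 100%. The symbol of the host named a parent for 135 smORFs. Of these, 66 also had such a match, which was to the named gene for 61. The rest were put with a parent by name, without such a match. Of the 167, 150 matched within the coding region of the parent, and only 31 of those (20.7%) kept the reading frame of the parent, with the other 119 in another frame. Among the 31, 18 were tested, of which 5 were higher and 0 lower. Over all smORFs tested 17.7% were higher, and over the tested pseudogene smORFs 26.4%, so these few calls set the 31 apart from neither.

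The 5 in frame included ENSG00000234460 IEC_06407, which matched the protease gene CTSL at 81.5% and went from 6.29 and 10.7 CPM to 99.7 and 80.6 (3.39 ± 0.41, adjusted p = 8.4e-06), and RABGEF1P3 IEC_18976 shown above. The count table leaves out known coding regions, so the parents' own coding reads could not be set beside those of the pseudogene. For 23 hosts the parent had other smORFs that were tested. Of 17 such hosts that were not called, the parent had no called smORF in 11, lower ones in 4 and higher in 2. WTAPP1 and RPLP0P2, which rose, were paired with the parent by name alone. Of the 6 hosts with a rise, the parent had no called smORF in 5 and lower ones in 1.

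That 1 was ENSG00000216775, a copy of the RNA-binding protein gene HNRNPAB with 80.6% identity, where IEC_10814 rose from 15.7 and 12.4 CPM to 37.1 and 45.5 (1.55 ± 0.41, adjusted p = 0.0073). The leading smORF of HNRNPAB itself went from 420 and 393 CPM to 135 and 96.2 (-1.83 ± 0.26, adjusted p = 4.5e-05), the opposite direction. For RABGEF1P3 the smORF of the parent was at -1.25 ± 0.57 (adjusted p = 0.093), against 4.99 ± 0.58 in the pseudogene. These differences between copies were not themselves tested.

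How far reads could be shared with another locus was measured on sequence. For 721 of the 771 smORFs, long enough for a window of 29 bases, 509 had no window that occurs exactly elsewhere in hg38 or in a transcript of another gene. Windows elsewhere were found for 212 (29.4%), and in the genome alone for 29% against 8.09% of all smORFs. At least 50% of windows lay elsewhere for 21 (2.91%). By type, in pseudogene exons, 46.3% of smORFs in unprocessed pseudogenes had such a window, 29.1% in processed and 7.14% in unitary ones. Sequencing errors and polymorphism were not modelled, and the multi-mapping options of the counting are not given in the sources used here.

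Called smORFs were set beside the 509 of 721 with no window elsewhere. Of 116 higher smORFs with a window, 91 had none elsewhere and 102 had under 10%, and of 43 lower ones 32 had none. Of the 21 with at least 50% elsewhere, 11 were tested and 1 was called, IEC_10880 in ENSG00000280828, which matched the kinase gene TLK2 at 98.7% with 58.2% of its windows elsewhere (1.58 ± 0.61, just past the threshold on the adjusted p). Identity ordered the sharing, with a median of 0% of windows elsewhere under 90% identity, 9.64% at 90 to 97% and 34.6% from 97%. Calls were 10 higher of 37 tested, 7 higher and 1 lower of 40, and 2 higher of 14 in these classes, where 17.7% of all tested smORFs were higher and 15.6% lower.

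**Figure D5:**
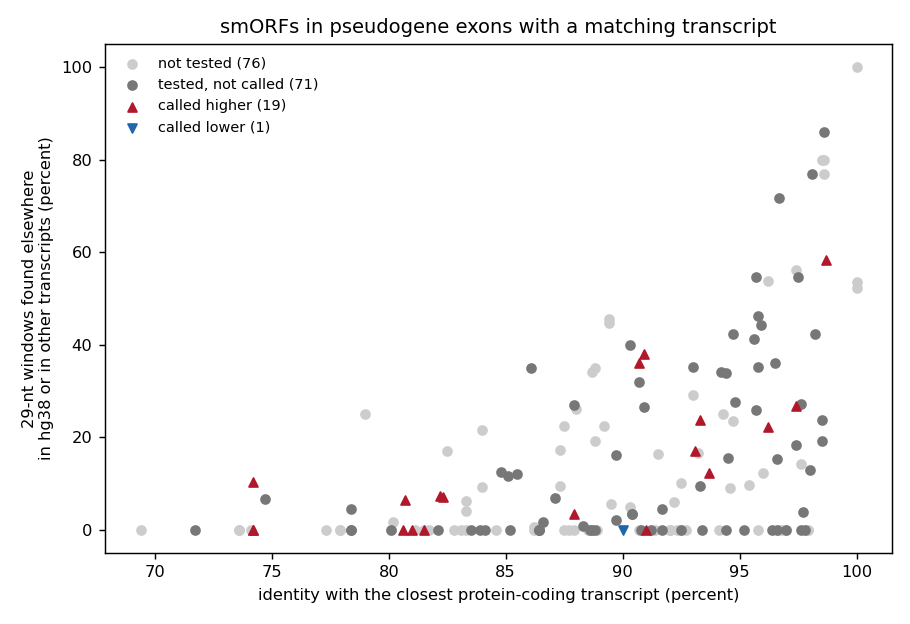
Share of 29-base windows found elsewhere (percent) against identity with the closest protein-coding transcript (percent), for the 167 smORFs in pseudogene exons with a match. Triangles mark smORFs called higher (19) or lower (1) on differentiation, and grey points those not called or not tested. Most called smORFs lie low on the vertical axis, and the single called one above 50% is IEC_10880.

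Examples show the range of sharing. ENSG00000108958 IEC_19441, 51 bases on chromosome 17, was identical to the succinate dehydrogenase gene SDHC, with 100% of windows elsewhere, and held too few counts to be tested. NDUFV2P1 IEC_22638 had 76.9% of windows elsewhere and 98.1% identity with NDUFV2, a subunit of respiratory complex I, and its 78.6 and 92.4 CPM against 48.9 and 59.8 (-0.64 ± 0.30, adjusted p = 0.11) cannot be assigned to 1 of the copies. GAPDHP74 IEC_19400 had no window elsewhere, although its first 29 bases differ from GAPDH at only 1 base. LGALS17A IEC_10748 held 0 counts in both undifferentiated libraries, 1 and 2 in the control, and 0 to 1 in the 4 micelle libraries, too few to be tested, with 0% of windows elsewhere.

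Micelles gave no called pseudogene smORF. Micelles without lipid against control, lipid micelles against control, and lipid micelles against micelles without lipid each had 0 of 462 called, as did all 15182 smORFs (0%) in edgeR and the 462 in DESeq2. At an unadjusted p under 0.05 there were 21 (4.55%, against 4.08% of all tested), 25 (5.41% against 4.66%) and 14 (3.03% against 4.11%), and 3, 2 and 2 in DESeq2. Median log2 fold changes were -0.02, -0.03 and -0.08. The 5th and 95th percentiles of single smORFs lay between -0.79 and 0.81 in these comparisons, which share libraries with one another. Changes under 2-fold could not be called by the threshold used, and larger ones could also be missed. In simulated counts, 69.8% of 4-fold and 81.1% of 8-fold changes between control and undifferentiated libraries were called.

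The smallest p-values named HSD3BP2 IEC_06712, which had 13.7 and 35.1 CPM in the control, 50.8 and 88.5 with micelles without lipid, and 43.1 and 100 with lipid micelles. Both micelle groups lay above the control libraries, at 1.45 ± 0.46 and 1.49 ± 0.45 (adjusted p = 0.99 and 0.96), and its 61.3 and 55.1 CPM in undifferentiated cells lay within the range of the micelle libraries. C19orf48P IEC_22663 was lower with micelles without lipid (21.8 and 26.3 CPM against 43 and 68.9, -1.23 ± 0.36, adjusted p = 0.86), as was ALOX12P2 IEC_22112 (7.25 and 9.68 against 23.5 and 26, -1.51 ± 0.54, adjusted p = 1).

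Under lipid micelles TUBA5P IEC_18875 stood at 1.49 and 3.49 CPM against 21.5 and 14.3 in the control (-2.67 ± 0.93, adjusted p = 0.96) and RPL26P30 IEC_19501 at 20.8 and 29.1 against 39.1 and 57.2 (-0.95 ± 0.36, adjusted p = 0.96). Against micelles without lipid, 3 overlapping smORFs of RP9P, a copy of the retinitis pigmentosa gene RP9, had the smallest p-values. Its IEC_19423 was at 10.4 and 10.5 CPM with lipid micelles and 36.3 and 22.1 without lipid (-1.44 ± 0.48, adjusted p = 1), with 19.5 and 14.3 in the control. None of these held after adjustment.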

How the data were processed

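Ribo-Seq libraries were made by the authors from Caco-2 lysates with cycloheximide, RNase I footprinting and rRNA depletion. Per the submitters' processing notes, reads were aligned with STAR 2.7.11a and counted with HOMER on hg38, and the deposited table gives raw counts per smORF. Strand, exon and multi-mapping options of the counting are not given in the sources used here. The deposited annotation adds the RibORF score and PhyloCSF score, which the authors computed per smORF (RibORF score of at least 0.7, at most 150 amino acids, known coding regions left out).

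Members were joined to the counts by smORF identifier and placed on GENCODE 44 exons on their strand. The members, gene lists and tests were chosen with earlier results of these data known. Counts of all 8 libraries were fitted in edgeR 4.0.16 (R 4.3.3) with its quasi-likelihood test, a low-count filter on groups, TMM scaling and 1 term per group, and p-values were adjusted by Benjamini-Hochberg over all tested smORFs. A smORF was called where the adjusted p was under 0.05 and the log2 fold change was 1 or more in size. Values after ± are SE for fold changes and SD for means. A group at 0 was set at 3 counts per library for a lower bound. DESeq2 1.42.0 was an alternative. Matches to protein-coding transcripts used blastn 2.17.0 (E-value 1e-05, 50% of the smORF aligned), and every 29-base window was sought exactly in hg38 and GENCODE 44 transcripts, with 25 and 33 bases as alternatives. The fit was tested on simulated data.

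For the named smORFs, the called smORF with the smallest adjusted p was taken from each host among those whose groups do not overlap on differentiation, and of these the 10 with the largest fold in each direction. Also named were the 8 hosts with the highest CPM per kb, the 3 smallest p-values of each micelle comparison, the leading smORF of each family with at least 3 hosts, and the smORF in LGALS17A. One smORF and 1 sequence pair that the rules give are not reported here. Others named in hosts and parent pairs were chosen after their values were seen.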

Additional observations from a re-analysis of the deposited data

How the results depend on the processing

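All smORFs together also had more rises than falls on differentiation in every refit. In each refit the share higher was larger, and the share lower smaller, among pseudogene smORFs than among all, for example 16.7% and 6.28% against 11.9% and 9.85% with DESeq2, and 17.3% and 6.79% against 12.6% and 11% with at least 10 counts in every library. The 166 called pseudogene smORFs became 39 (28 higher and 11 lower of 162 tested) with at least 10 counts in every library, where fewer smORFs were tested, and 58 (50 and 8 of 210) with 1 smORF per overlap cluster. They became 106 (77 and 29) with DESeq2's Wald test, where the cause was not tested, and 97 (85 and 12) among smORFs with pseudogene types alone. Among smORFs mainly in pseudogene exons, a restriction added after the data were seen, 93 were called (75 and 18). Leaving out 1 library gave 104, without undifferentiated replicate 1, to 176. DESeq2 size factors gave 165, no filter 189, and smORFs with under 50% of windows elsewhere 158. The replicate block gave 165 (121 and 44) and no call in the micelle comparisons. Replicate numbers were not taken as pairs, since the labels do not tie them to a shared batch and same-numbered deviations correlated at -0.0605 to 0.188. All 3 micelle comparisons stayed at 0 called in every alternative.

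The difference in share, 0.344 percentage points, was 0.369 with pseudogene types alone, 0.328 under 50% of windows elsewhere, 0.136 in exons and 0.257 with 1 smORF per cluster (0.337 to 0.351 leaving out 1 library). The 21 smORFs with at least 50% of windows elsewhere became 33 with windows of 25 bases and 17 with 33. Of 22 called smORFs named by the rule, 17 kept the call in every alternative in which they were tested. Those at or near 0 in undifferentiated cells, such as IEC_07086, were not tested with at least 10 counts in every library. IEC_18580, IEC_16532, IEC_22781, IEC_19658 and IEC_06958 lost the call when 1 library was left out. IEC_06958 also lost it with DESeq2 size factors, the replicate block (both 0.99) and DESeq2. Signs turned for smORFs that were not called when 1 library was left out. Their ranges were -0.95 to 1.03 for IEC_19400, -0.96 to 0.69 for IEC_10631, -0.61 to 0.61 for IEC_23930 and -0.42 to 0.12 for IEC_12845.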
